A study of Mus musculus with 6 samples.

Results

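Transcripts of the mitochondrial genome were taken as every entry whose symbol starts with mt-. There were 37 of them among 35491 named entries: 13 mRNAs, 2 rRNAs and 22 tRNAs, which is the full set annotated on the mouse mitochondrial chromosome. They were measured in gastrocnemius, the large calf muscle, in 3 Control and 3 Ogg1Tg RNA-seq libraries. The mice were untreated males on a C57BL/6J background, fed chow and killed at 20 weeks. The Ogg1Tg mice carry human OGG1-1a, a DNA glycosylase, fused to a signal that sends the protein into mitochondria and driven by a CMV/AG promoter, which is not specific to muscle. The sources used here say neither whether each library came from a separate mouse nor whether the animals were littermates. The comparison asks how muscle transcripts change when this repair enzyme is placed in mitochondria.

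OGG1 cuts the oxidised base 8-oxoguanine out of DNA. Mitochondrial DNA is a small circle that is transcribed along both strands into long precursors, and tRNAs lying between the other genes are cut out to release mRNAs and rRNAs. The mRNAs encode core subunits of respiratory complexes I, III, IV and V, while the rRNAs and tRNAs serve their translation inside the organelle. Most genes are transcribed from the heavy strand, and mt-Nd6 with 8 of the 22 tRNAs from the light strand. Muscle is rich in mitochondria, so these transcripts make up much of its RNA.

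Of the tRNAs, 3 held 96.2% to 99.2% of tRNA reads in each library and their fold changes had the opposite sign to those of the mRNAs, so their sequences are shown. All 3 are transcribed from the light strand. They are the tRNAs for asparagine (mt-Tn, chrM:5089-5159), cysteine (mt-Tc, chrM:5192-5257) and proline (mt-Tp, chrM:15356-15422) in the GENCODE M21 annotation, whose build GRCm38 is that of mm10. Each is written 5′ to 3′ as transcribed, with the anticodon in capitals.
mt-Tn: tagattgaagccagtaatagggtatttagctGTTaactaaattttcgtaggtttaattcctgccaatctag
mt-Tc: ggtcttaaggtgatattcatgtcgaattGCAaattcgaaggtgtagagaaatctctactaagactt
mt-Tp: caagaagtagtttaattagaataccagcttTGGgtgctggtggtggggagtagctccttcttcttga
The genes mt-Tn and mt-Tc are neighbours with 32 bases between them that belong to no annotated gene, and mt-Tp is the last gene of the map. Of the other 19 tRNAs, none was more than 5 bases from the next gene within the map.

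Reads in named genes ran from 45189860 to 56126407 per library. Values below are listed in the order of replicates 1, 2 and 3, and are reads divided by 1 factor per library, as deposited, and not per length unless said. Mouse Ogg1 measured 191 ± 35.7 in Control and 190 ± 13.1 in Ogg1Tg muscle (SD, n = 3). The transgene is human and has no entry of its own here, and whether any of its reads fell in the mouse entry was not tested. All 10 skeletal muscle markers were expressed, with Ttn and Myh4 the highest. Ogg1Tg replicate 3 stood apart: across genes, Spearman correlations between it and any other library lay between 0.946 and 0.953, and those among the remaining 5 libraries between 0.975 and 0.983. In that library the summed level of 10 immune cell markers was 28645, against 2613 to 4324 in Control and 2469 to 2594 in the other 2 Ogg1Tg libraries. The sum of 8 adipocyte markers was 12889 there, against 4602 to 5141 in Control and 3969 to 4365 in the other 2 Ogg1Tg libraries.

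The mean share of reads in named genes was lower for the mRNAs and higher for the summed tRNAs in Ogg1Tg muscle. The 13 mRNAs took 11.3%, 12.9% and 13.8% of reads in Control and 11.5%, 10.3% and 8.29% in Ogg1Tg muscle. Those ranges overlap, through Control replicate 1 and Ogg1Tg replicate 1. The 2 rRNAs took 1.06%, 1.28% and 1.38%, against 1.13%, 1.34% and 0.817%, and overlap as well. The 22 tRNAs together held 0.00203%, 0.00214% and 0.00250% of reads in Control and 0.00530%, 0.00416% and 0.00378% in Ogg1Tg muscle, with no overlap. Their reads numbered 1056, 1035 and 1263 against 2976, 2150 and 1710. Of these, mt-Tn, mt-Tc and mt-Tp held 96.2% to 99.2% in each library, so the tRNA share is mainly that of these 3. In whole tissue, fewer cells of a type and less RNA per cell cannot be told apart.

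**Figure D1:**
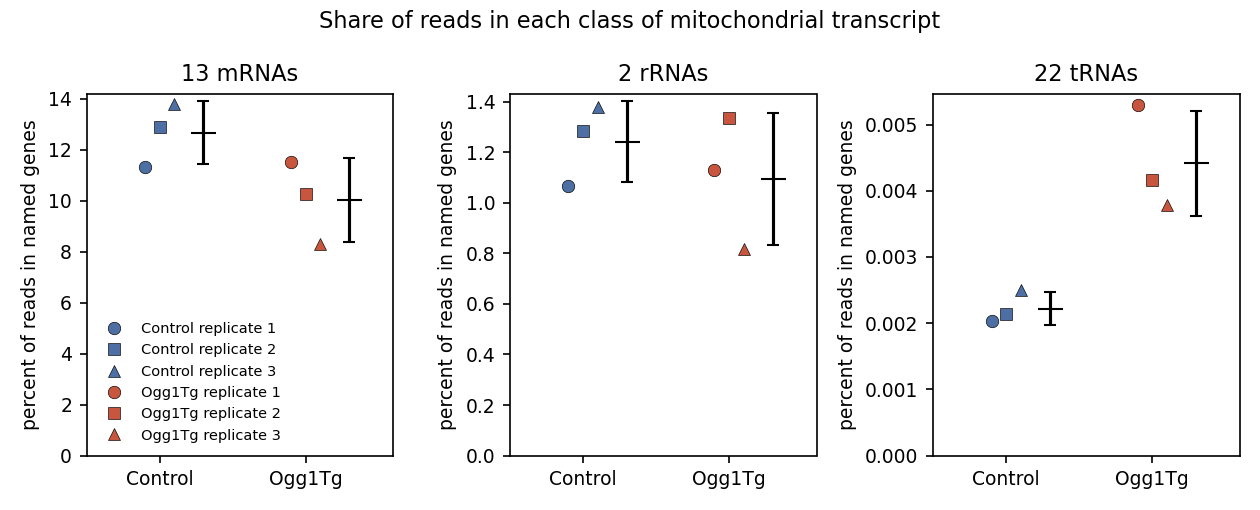
Percent of reads in named genes held by the 13 mRNAs, 2 rRNAs and 22 tRNAs of the mitochondrial genome; points are libraries, marker shape gives the replicate, and bars show mean ± SD (n = 3). The tRNA share is 0.00203% to 0.00250% in Control and 0.00378% to 0.00530% in Ogg1Tg libraries, while the mRNA and rRNA shares overlap.

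Within a library the proportions of the classes can be compared without regard to scaling. The summed mRNAs were 10.6, 10.1 and 10.01 times the summed rRNAs in Control, and 10.2, 7.70 and 10.1 times in Ogg1Tg muscle. Ogg1Tg replicate 2 alone was low. The tRNAs came to 0.179, 0.166 and 0.181 per 1000 of mRNA value in Control, and to 0.460, 0.405 and 0.457 in Ogg1Tg muscle. All 3 Ogg1Tg libraries were high and close together, Ogg1Tg replicate 3 included. On the deposited scale the mRNA sum in this ratio was itself lower in every Ogg1Tg library than in any Control library. The log2 difference was 1.33, with a pooled SD of 0.088 between libraries, and it stayed between 1.29 and 1.39 with any 1 library left out.

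Levels among the mRNAs spanned a wide range per length. Per kilobase, mt-Co1, the catalytic subunit of cytochrome c oxidase, was highest in Control muscle at 1794838 ± 128979 (SD, n = 3). It was followed by mt-Atp6 of ATP synthase at 1117910 ± 35161 and mt-Nd4 of complex I at 852605 ± 55460. Next came mt-Nd1 at 768297, mt-Cytb at 679454, mt-Nd2 at 565718, mt-Co2 at 534157, mt-Co3 at 503193, mt-Nd5 at 438371 and mt-Nd6 at 408922 per kilobase. The neighbours mt-Nd2 and mt-Co2 (SD 17781 and 26839), mt-Co2 and mt-Co3 (SD 26839 and 14565), and mt-Nd5 and mt-Nd6 (SD 31828 and 36807) differed by about their spread or less. Lowest were mt-Nd4l at 176905, mt-Nd3 at 102017 and mt-Atp8 at 24345 per kilobase. The 2 rRNAs, mt-Rnr2 of the large and mt-Rnr1 of the small ribosomal subunit, stood at 355438 and 300089 per kilobase. The sources used here do not say whether rRNA was depleted, so the level of rRNA against mRNA is that of these libraries.

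Overlapping genes limit what the short mRNAs measure. The genes mt-Atp8 and mt-Atp6 share 43 bases, mt-Nd4l and mt-Nd4 share 7, and mt-Nd5 and mt-Nd6 share 14 on opposite strands. The sources used here state neither the strand setting nor how reads over 2 genes were counted. The ends of the overlapping genes are shown 5′ to 3′ as transcribed, with the shared bases in capitals, because the bicistronic pairs and the mt-Nd6 result rest on them. They lie at chrM:7910-7969, chrM:10150-10173, chrM:13535-13565 and, on the minus strand, chrM:13552-13582.
mt-Atp8: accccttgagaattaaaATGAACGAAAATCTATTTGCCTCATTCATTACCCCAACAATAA
mt-Nd4l: aatctcaacctactacaATGCTAA
mt-Nd5: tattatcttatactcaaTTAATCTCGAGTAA
mt-Nd6: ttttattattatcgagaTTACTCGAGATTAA
The shared stretches of mt-Atp8 and mt-Nd4l open with the start codon of the next gene.

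All 13 mRNAs had lower mean values in Ogg1Tg muscle, between 60.4% of the Control mean for mt-Nd2 and 83.1% for mt-Nd6. None passed limma at an adjusted p under 0.05. Of all 23312 genes tested, 127 passed (0.545%), 92 of them higher (0.395%) and 35 lower (0.150%) in Ogg1Tg muscle. Of the 37 mitochondrial entries 22 reached the mean value of 1 needed for testing and 0 passed, with 6 at an unadjusted p under 0.05, a level reached by 11.0% of all genes. With edgeR 0 passed, beside 0.532% of all genes. With DESeq2 mt-Tn and mt-Tp passed, both higher, beside 2.67% of all genes in either direction and 1.56% higher. The log2 fold changes of the mRNAs, from log2(value + 1), ran from -0.81 to -0.31 with a median of -0.59, against a median of -0.02 over all genes tested. Without Ogg1Tg replicate 3 the median of the mRNAs was -0.30 and their range -0.45 to -0.04.

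Complex I mRNAs are given first. mt-Nd1 measured 712577, 753016 and 740189 in Control and 555499, 568899 and 276884 in Ogg1Tg muscle. Every Ogg1Tg library was below every Control library, and replicate 3 was far lower than the others (log2 fold change -0.73 ± 0.54 SE, limma adjusted p = 0.66). mt-Nd2 measured 568531, 587677 and 605437 in Control and 418484, 444240 and 201363 in Ogg1Tg muscle. It had the lowest fold change of the 13 (-0.81 ± 0.50 SE, limma adjusted p = 0.60). mt-Nd4 measured 1113985, 1150037 and 1260648 against 886952, 962052 and 476688, without overlap (-0.66 ± 0.67 SE, limma adjusted p = 0.74).

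mt-Nd5, the largest of the mRNAs, went against this pattern in 2 libraries. It measured 747630, 788887 and 862250 in Control and 782927, 750892 and 424932 in Ogg1Tg muscle. Ogg1Tg replicates 1 and 2 lay within the Control range and replicate 3 below it (log2 fold change -0.34 ± 0.58 SE, limma adjusted p = 0.85). mt-Nd6, from the other strand, measured 194592, 209579 and 232521 against 207939, 202743 and 118240. It too was within the Control range in 2 Ogg1Tg libraries (-0.31 ± 0.35 SE, limma adjusted p = 0.77).

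Of the short complex I mRNAs, mt-Nd3 measured 33615, 35051 and 37840 against 30703, 29207 and 16724 (log2 fold change -0.52 ± 0.24 SE, limma adjusted p = 0.48). mt-Nd4l measured 47312, 50616 and 59694 against 37761, 40681 and 20989 (-0.72 ± 0.27 SE, limma adjusted p = 0.37). Neither overlapped between the groups.

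mt-Cytb, the mitochondrial subunit of complex III, measured 745539, 756741 and 829608 in Control and 659490, 664672 and 356809 in Ogg1Tg muscle (log2 fold change -0.53 ± 0.56 SE, limma adjusted p = 0.75). For complex IV, mt-Co1 measured 2549053, 2839320 and 2930699 against 2361073, 2132824 and 1224821 (-0.59 ± 1.02 SE, limma adjusted p = 0.86). mt-Co2 measured 345170, 381045 and 369875 against 311701, 294928 and 170279, and mt-Co3 383174, 406010 and 394326 against 359864, 334843 and 184362. In each of these 4 mRNAs all Ogg1Tg libraries lay below the Control range, replicate 3 furthest (log2 fold changes of -0.55 for mt-Co2 and -0.49 for mt-Co3, limma adjusted p = 0.66 and 0.71).

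For complex V, mt-Atp6 measured 735221, 766371 and 782298 in Control and 565303, 595511 and 292953 in Ogg1Tg muscle (log2 fold change -0.72 ± 0.55 SE, limma adjusted p = 0.67). mt-Atp8 measured 4612, 4920 and 5367 against 3752, 4142 and 2171 (-0.62 ± 0.23 SE, limma adjusted p = 0.36). Both were lower in all 3 Ogg1Tg libraries.

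Groups did not overlap, lower in Ogg1Tg, for 11 of the 13 mRNAs, all but mt-Nd5 and mt-Nd6. Over all genes tested the same held for 11.3%. That count depends on the scaling. When values were rescaled to the total of genes outside the mitochondrial genome it was 6 of 13, beside 5.69% of all genes, and those 6 were mt-Nd1, mt-Nd2, mt-Atp8, mt-Atp6, mt-Nd4l and mt-Nd4. The rescaling moved the median log2 fold change of all genes from -0.02 to 0.17 and that of the mRNAs from -0.59 to -0.39. With it 13 of 13 mRNAs were still below 0. With quantile normalization the median of the mRNAs was -0.17, mt-Co1 came to a log2 fold change of 0 and the other 12 stayed below 0. That method gives each rank the same value in every library. Fold changes of the most abundant mRNAs under it therefore reflect changes of rank only.

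**Figure D2:**
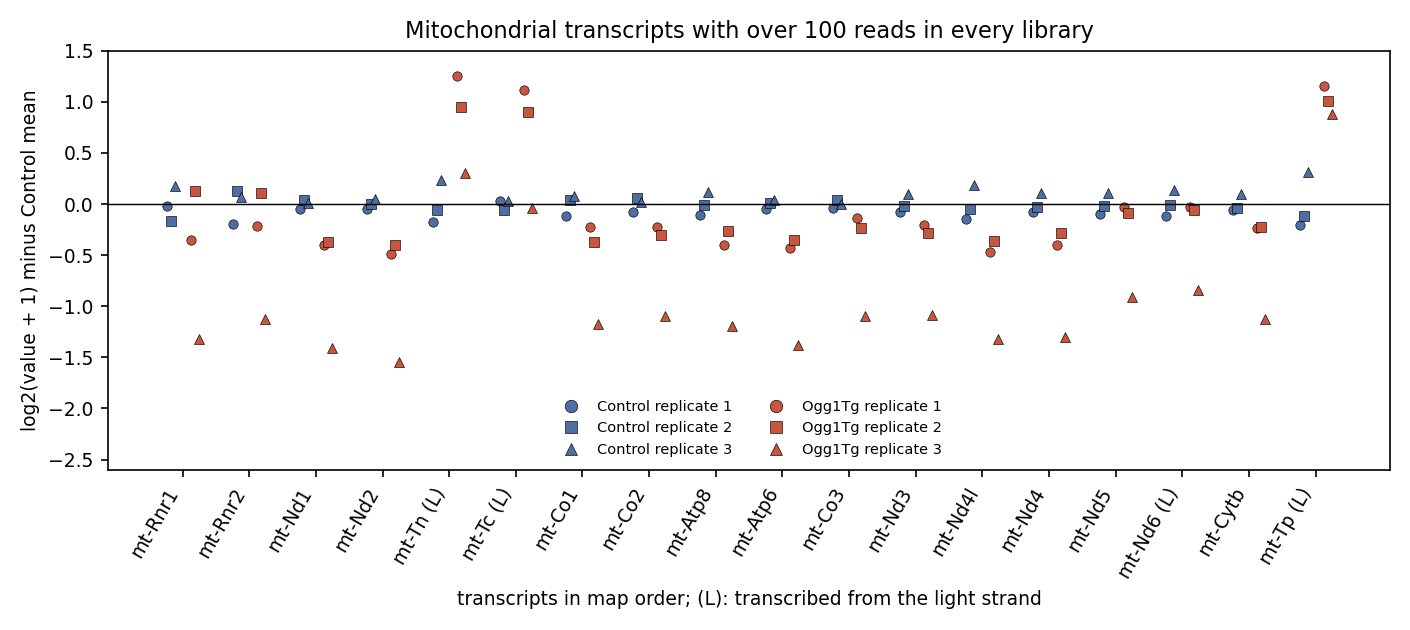
Log2(value + 1) of each library minus the Control mean, for the 18 transcripts with over 100 reads in every library, in map order; colour gives the group, marker shape the replicate, and (L) marks light strand transcripts. The mRNAs of Ogg1Tg replicates 1 and 2 lie between -0.49 and -0.03 and those of replicate 3 between -1.54 and -0.84, while mt-Tn and mt-Tp lie above 0 in all 3 Ogg1Tg libraries.

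The balance among the mRNAs also differed between the groups. As a share of the 13 mRNAs, mt-Nd5 held 9.14%, 9.04% and 9.46% in Control and 10.9%, 10.7% and 11.3% in Ogg1Tg muscle. mt-Nd6 held 2.38%, 2.40% and 2.55% against 2.90%, 2.89% and 3.14%. In both, the 3 Ogg1Tg libraries lay above every Control library, replicates 1 and 2 as well as replicate 3.

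Shares of other mRNAs were lower. mt-Nd2 held 6.95%, 6.73% and 6.65% of the mRNAs in Control and 5.83%, 6.32% and 5.35% in Ogg1Tg muscle. mt-Nd1 held 8.71%, 8.63% and 8.12% against 7.74%, 8.10% and 7.35%, and mt-Atp6 8.99%, 8.78% and 8.59% against 7.87%, 8.48% and 7.78%. mt-Co3, mt-Nd3 and mt-Cytb had slightly higher shares without overlap, and mt-Co1 held 32.0% ± 0.709 against 31.9% ± 1.36 (SD). In all, 8 of the 13 shares did not overlap, some of them narrowly. mt-Nd3 held at most 0.4153% in Control and at least 0.4157% in Ogg1Tg muscle. mt-Nd1 held at least 8.12% in Control and at most 8.10% in Ogg1Tg muscle. A matching share over all genes was not computed for this measure. Shares sum to 100%, so they do not move independently.

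**Figure D3:**
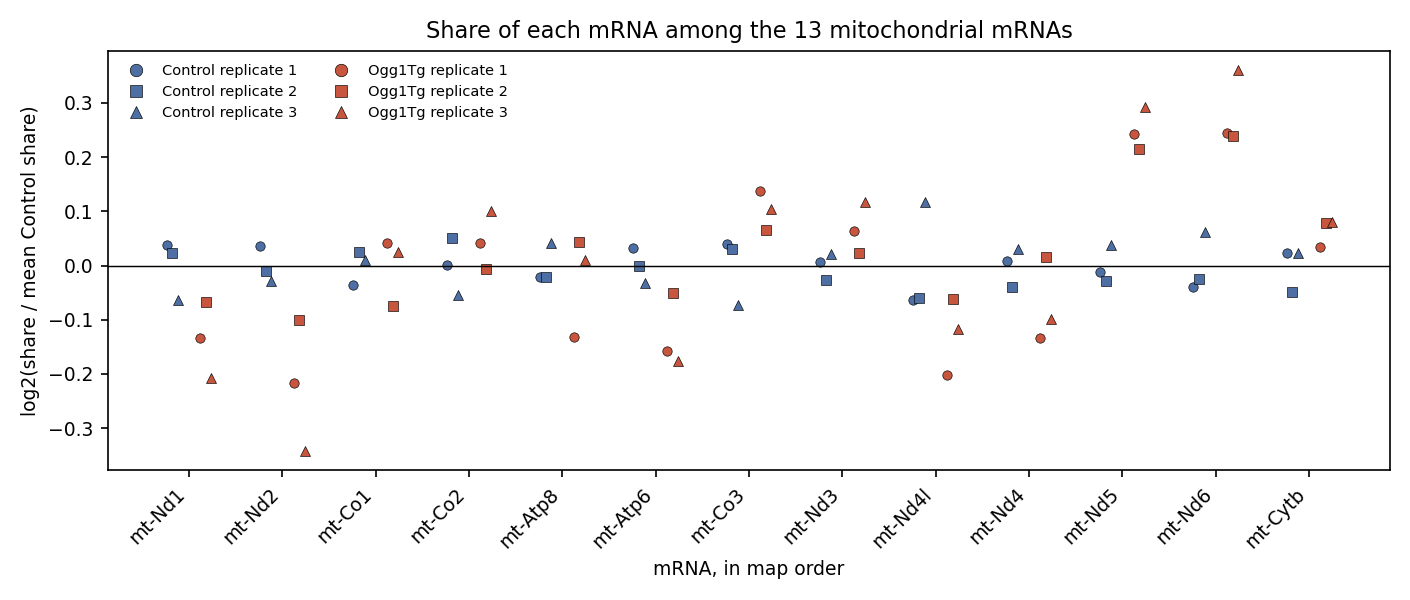
Log2 of each mRNA's share of the 13 mitochondrial mRNAs over its mean share in Control, by library and in map order. The shares of mt-Nd5 and mt-Nd6 in the 3 Ogg1Tg libraries lie above those of Control, and the shares of mt-Nd1, mt-Nd2 and mt-Atp6 lie below.

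Ratios between 2 transcripts of the same library were tested for 13 pairs with two-sided exact permutation tests, in which 3 libraries against 3 allow no p below 0.1. For 5 of them the groups did not overlap, each with exact p = 0.1, the smallest possible, and an adjusted p of 0.26 over the 13 ratios. A matching share over pairs of other genes was not computed. Several of the 13 ratios use the same transcript, so they are not independent. The ratio mt-Nd5/mt-Nd4 was 0.671, 0.686 and 0.684 in Control and 0.883, 0.781 and 0.891 in Ogg1Tg muscle, a log2 difference of 0.32 ± 0.062 (SE). These are neighbours on the map with tRNA genes between them, and mt-Nd5 comes second.

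The ratio mt-Nd1/mt-Rnr2 compares the first mRNA with the rRNA just before it. It was 1.46, 1.23 and 1.26 in Control and 1.15, 0.946 and 1.08 in Ogg1Tg muscle, a log2 difference of -0.32 ± 0.11 (SE). The ratio mt-Co3/mt-Atp6, of genes that adjoin with no tRNA between them, was 0.521, 0.530 and 0.504 against 0.637, 0.562 and 0.629. The ratio mt-Cytb/mt-Nd1, of the last against the first mRNA, was 1.05, 1.005 and 1.12 against 1.19, 1.17 and 1.29. The ratio mt-Nd6/mt-Cytb was 0.261, 0.277 and 0.280 against 0.315, 0.305 and 0.331. In each of these the 3 Ogg1Tg libraries fell on the same side, replicate 3 included.

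For the other 8 ratios the groups overlapped. The bicistronic pairs mt-Atp8/mt-Atp6 and mt-Nd4l/mt-Nd4 had log2 differences of 0.10 ± 0.060 and -0.053 ± 0.050 (SE). The ratio mt-Rnr2/mt-Rnr1 was 1.73, 2.40 and 1.81 in Control and 2.15, 1.94 and 2.24 in Ogg1Tg muscle, with Control replicate 2 the highest of all. Their exact permutation p were 0.2, 0.5 and 0.7. Differences for mt-Nd2/mt-Nd1, mt-Co1/mt-Nd1, mt-Co2/mt-Co1, mt-Nd3/mt-Co3 and mt-Nd6/mt-Nd5 ran from -0.084 to 0.13 on the log2 scale.

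The strand comparison rests on mt-Nd6 alone among mRNAs. Against the sum of the 12 heavy strand mRNAs, mt-Nd6 was 0.0244, 0.0246 and 0.0262 in Control and 0.0298, 0.0297 and 0.0324 in Ogg1Tg muscle, without overlap. Against its opposite-strand neighbour mt-Nd5 it was 0.260, 0.266 and 0.270 in Control and 0.266, 0.270 and 0.278 in Ogg1Tg muscle, with overlap (log2 difference 0.033 ± 0.025 SE, exact permutation p = 0.3). Per kilobase the 2 genes were nearly level, with mt-Nd6 at 0.932 ± 0.0166 of mt-Nd5 in Control and 0.953 ± 0.0226 in Ogg1Tg muscle. Without strand, reads from mt-Nd6 cannot be told apart from reads of heavy strand RNA that runs on past mt-Nd5, and these values do not separate the strands.

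The 2 rRNAs had mean values below Control as well. mt-Rnr1 measured 281303, 255087 and 323364 in Control and 223976, 310742 and 114461 in Ogg1Tg muscle (log2 fold change -0.51 ± 0.44 SE, limma adjusted p = 0.70). mt-Rnr2 measured 487538, 612977 and 586395 against 481247, 601654 and 256803 (-0.41 ± 0.52 SE, limma adjusted p = 0.79). Both overlapped between the groups: Ogg1Tg replicate 2 lay inside the Control range while replicate 3 lay far below it. Ogg1Tg replicate 1 was also below the Control range, for mt-Rnr2 only just. Without Ogg1Tg replicate 3 the log2 fold changes were -0.11 for mt-Rnr1 and -0.057 for mt-Rnr2.

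Among tRNAs, mt-Tn measured 379, 410 and 505 in Control and 1022, 829 and 528 in Ogg1Tg muscle. The underlying counts were 273 to 387 reads in Control and 525 to 920 in Ogg1Tg libraries. Its groups did not overlap, although Ogg1Tg replicate 3 stood only just above Control (log2 fold change 0.84 ± 0.24 SE, limma adjusted p = 0.24). mt-Tp measured 158, 168 and 227 against 405, 368 and 335, with 114 to 174 and 278 to 365 reads. It did not overlap either (1.01 ± 0.20 SE, limma adjusted p = 0.082). Values of all genes tested were higher without overlap for 7.03%.

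mt-Tc measured 872, 822 and 874 in Control and 1851, 1602 and 836 in Ogg1Tg muscle. Ogg1Tg replicates 1 and 2 were above every Control library and replicate 3 was inside the Control range (log2 fold change 0.66 ± 0.26 SE, limma adjusted p = 0.40). This overlap depends on the scaling. With median-of-ratios rescaling, rescaling to genes outside the mitochondrial genome, or shares of reads, mt-Tn, mt-Tc and mt-Tp were all higher without overlap, beside 9%, 12.5% and 15.2% of all genes.

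Without Ogg1Tg replicate 3, all 3 tRNAs passed limma, with log2 fold changes of 1.10 for mt-Tn, 1.01 for mt-Tc and 1.08 for mt-Tp and adjusted p of 0.0072, 0.0013 and 0.026. In that fit 1.86% of all genes passed, and 0.986% were called higher, against 0.545% and 0.395% with all libraries. With DESeq2 on all 6 libraries mt-Tn and mt-Tp passed (adjusted p = 0.017 and 0.00035) and mt-Tc did not (adjusted p = 0.082).

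Set against the mRNAs of the same library, all 3 tRNAs were higher in every Ogg1Tg library than in any Control library, replicate 3 included. The summed mRNA value was itself lower, 8181012 to 9110750 in Control and 3767214 to 7181449 in Ogg1Tg muscle. That fall of the denominator is part of the folds below. How many of all genes would separate on this measure was not computed. mt-Tn came to 46.3, 47.0 and 55.4 per 1000000 of mRNA value in Control and 142, 118 and 140 in Ogg1Tg muscle, a fold of 2.69. mt-Tc came to 107, 94.2 and 96.0 against 258, 228 and 222, a fold of 2.38. mt-Tp came to 19.3, 19.2 and 24.9 against 56.5, 52.3 and 88.9, a fold of 3.05, with replicate 3 the highest. The ratio of mt-Tc to mt-Tn was 2.01 ± 0.286 in Control and 1.78 ± 0.177 in Ogg1Tg muscle, with overlap. Without strand, reads over these 3 genes cannot be told apart from reads of heavy strand RNA. Uncut precursors were not separated from tRNAs either.

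**Figure D4:**
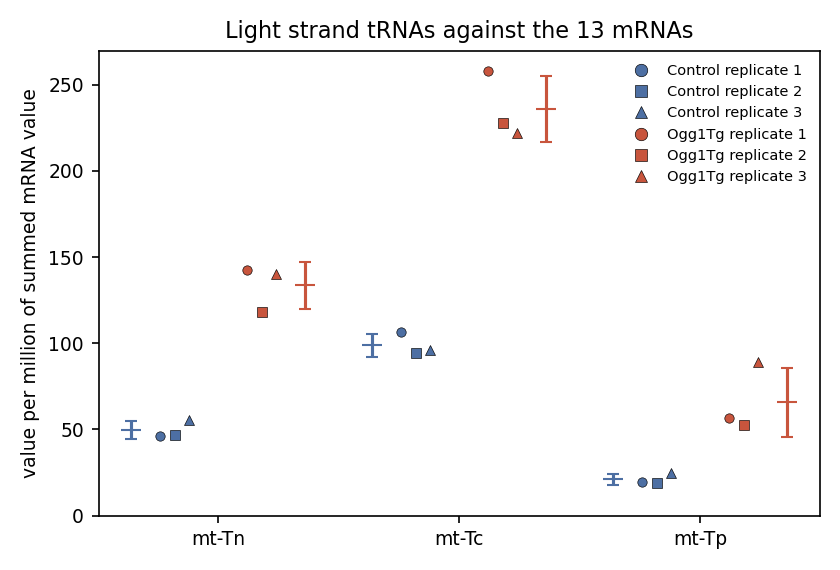
Values of mt-Tn, mt-Tc and mt-Tp per 1000000 of the summed value of the 13 mRNAs of the same library; points are libraries, marker shape gives the replicate, and bars show mean ± SD (n = 3). All Ogg1Tg points lie above all Control points for each tRNA, for example 118 to 142 against 46.3 to 55.4 for mt-Tn.

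The other 19 tRNAs were nearly unread. mt-Tf, mt-Ti, mt-Tq, mt-Tw, mt-Ta, mt-Td, mt-Tk, mt-Tg, mt-Tr, mt-Th, mt-Ts2, mt-Tl2 and mt-Tt, 13 in all, were listed at 0 in all 6 libraries. Another 6, mt-Tv, mt-Tl1, mt-Tm, mt-Ty, mt-Ts1 and mt-Te, had at most 31 reads in any library. mt-Tm, the methionine tRNA just before mt-Nd2, had 31, 14 and 16 reads in Control and 10, 9 and 0 in Ogg1Tg libraries (limma adjusted p = 0.42), where 0 allows up to 3 reads. Its groups did not overlap, at these low counts. Recovery of short RNA in these libraries, and how reads over a tRNA and its neighbour were counted, was not tested.

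Nuclear copies of mitochondrial DNA limit some members. At 95% identity or more over at least 100 bases, 9 of the 15 mRNAs and rRNAs had such a copy among annotated transcripts: mt-Nd2, mt-Co1, mt-Co2, mt-Atp6, mt-Co3, mt-Nd3, mt-Nd4l, mt-Nd4 and mt-Nd5. The copies of mt-Co2, mt-Atp6, mt-Co3 and mt-Nd4l on chromosome 1 matched at 100% over nearly the whole transcript. That of mt-Nd4, also on chromosome 1, matched at 100% over 63.6% of the transcript. Of 11 copies 5 are entries of the deposited tables. Gm10222, the copy of mt-Nd4l, measured 72533 ± 6726 in Control and 47007 ± 16413 in Ogg1Tg muscle, more than mt-Nd4l itself. The log2 fold change was -0.69 for Gm10222 and -0.70 for both entries summed, close to the -0.72 of mt-Nd4l. Gm13340, a copy of mt-Co1 on chromosome 2 with 97.6% identity, measured 4.16% of mt-Co1 in Control and 4.15% in Ogg1Tg muscle. The sources used here do not say how reads matching both were counted. The levels of the 9 mRNAs, and the shares and ratios that use them, are therefore uncertain. mt-Nd1, mt-Atp8, mt-Nd6, mt-Cytb and the 2 rRNAs had no copy by this rule. The tRNAs, of 59 to 75 bases, are too short for it and were not assessed.

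Across the 13 mRNAs, fold changes were higher toward the end of the map (Pearson r = 0.68 and Spearman rho = 0.64 with the start position), given as a description. With the guanine content of the transcript r was 0.60, a content which ran from 5.88% in mt-Atp8 to 28.1% in mt-Nd6. Without mt-Nd6, over 12 mRNAs, r was 0.59 with position and 0.30 with guanine content. Transcript length had r = 0.14. These points come from the same libraries and 1 small chromosome and are not independent.

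Nuclear subunits of the same complexes had median log2 fold changes of -0.33 for complex I, -0.30 for III, -0.29 for IV and -0.26 for V, with no subunit past limma. These medians rest on Ogg1Tg replicate 3. Against the Control mean, the median subunit of complex I was at 0.01, -0.23 and -0.78 in Ogg1Tg replicates 1, 2 and 3, that of complex III at -0.01, -0.22 and -0.71, that of complex IV at 0.08, -0.21 and -0.70, and that of complex V at 0.06, -0.21 and -0.69. Without Ogg1Tg replicate 3 the medians were -0.09 for complex I, -0.11 for III, -0.04 for IV and -0.06 for V.

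For complex IV the ratio of summed mitochondrial to summed nuclear values was 45.2, 45.2 and 49.6 in Control and 36.0, 39.2 and 30.4 in Ogg1Tg muscle, and for complex V 3.14, 3.03 and 3.38 against 2.24, 2.83 and 1.996. Neither overlapped. For complex I it was 22.2, 22.05 and 25.9 against 19.6, 23.0 and 17.9, and for complex III 12.3, 11.3 and 13.01 against 10.6, 13.2 and 9.94, both with overlap. Complex II, which has no mitochondrial subunit, had summed values of 46911, 53947 and 50338 in Control and 49187, 40157 and 29130 in Ogg1Tg muscle, with overlap through Ogg1Tg replicate 1.

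Abundant nuclear subunits of each complex are given as means of Control and Ogg1Tg muscle (± SD, n = 3). Ndufs1 of complex I measured 12409 ± 281 and 8834 ± 2004. Sdha and Sdhb of complex II measured 29159 ± 1317 and 22389 ± 5130, and 10287 ± 1888 and 8370 ± 2755. Uqcrc1 and Uqcrc2 of complex III measured 18764 ± 705 and 13482 ± 4102, and 13356 ± 962 and 10130 ± 2654. For complex IV, Cox4i1 measured 12622 ± 1147 and 10656 ± 3210, while Cox6a2, a muscle form and the single subunit of that list with a log2 fold change above 0, measured 11410 ± 1120 and 16360 ± 1879 (limma adjusted p = 0.25). Atp5b and Atp5a1, the catalytic beta and the alpha subunit of complex V, measured 78453 ± 3611 and 70951 ± 18264, and 62138 ± 2935 and 48062 ± 13073. Of the 75 nuclear subunits, complex II included, 0 passed limma and edgeR, 13 had an unadjusted p under 0.05 (11.0% of all genes) and 2 passed DESeq2 (2.67% of all genes). A log2 fold change below 0 was found for 74 of them, and for 52.8% of all genes. Without Ogg1Tg replicate 3 it was found for 31 of 36 in complex I and 4 of 4 in complex II. In complexes III, IV and V it held for 7 of 9, 8 of 11 and 11 of 15, beside 55.5% of all genes.

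Of 42 nuclear genes tested that make, cut and protect mitochondrial RNA, 0 passed limma, edgeR or DESeq2. Over all genes 0.545%, 0.532% and 2.67% passed these tools. Among the 42, 2 had an unadjusted limma p under 0.05, a level reached by 11.0% of all genes. Their median log2 fold change was -0.08, or 0.01 without Ogg1Tg replicate 3. Lrpprc, which stabilises mitochondrial mRNAs, measured 6305 ± 526 and 5838 ± 1138, and Fastk, a mitochondrial RNA-binding protein that maintains mt-Nd6 mRNA, 6099 ± 410 and 5774 ± 1387. Of 16 genes for tRNA modification and tRNA ends, 0 passed by any of the 3 tools. Again 2 had an unadjusted limma p under 0.05, beside the same 11.0% of all genes, and the median was 0.03. Nsun2 and Trmt1, which methylate tRNAs, measured 1886 ± 129 and 2075 ± 348, and 1706 ± 164 and 2113 ± 330.

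Markers of fibre type and other cells are given beside these results. The sum of 8 slow fibre markers was 34239, 77140 and 88479 in Control and 115751, 151499 and 95737 in Ogg1Tg muscle. Control replicate 1 stood apart as low. All 8 had a log2 fold change above 0, with a median of 0.99, or 0.59 without Control replicate 1. Of these 8, 0 passed limma and edgeR, 5 had an unadjusted p under 0.05 (11.0% of all genes) and 3 passed DESeq2 (2.67% of all genes). Myh7, the slow myosin, measured 27287 ± 14464 in Control and 62665 ± 15002 in Ogg1Tg muscle, and Atp2a2, a calcium pump, 18446 ± 6164 and 22370 ± 5781. Slow fibres hold more mitochondria than most fast fibres.

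Skeletal muscle markers had medians of -0.17, 0.11 and -0.82 from the Control mean in Ogg1Tg replicates 1, 2 and 3. Of the 4 heart markers, Myh6 measured 961, 2816 and 2772 in Control and 4686, 5449 and 3956 in Ogg1Tg muscle, without overlap (log2 fold change 1.25, limma adjusted p = 0.26). Tnni3 measured 0 to 9.14 in Control and 7.94 to 47.3 in Ogg1Tg muscle, and Nppa and Myl7 measured 2.22 to 12.6 and 0 to 2.77 over all libraries. Among immune markers Cd74 measured 1123 to 2211 in Control and 13510 in Ogg1Tg replicate 3, and Lyz2 1284 to 1846 and 3460. Among adipocyte markers Fabp4 measured 1962 to 2493 in Control and 3265 in that library, and Cfd 684 to 1094 and 4517. All 5 erythroid markers had log2 fold changes below 0, with a median of -0.58, and Alas2 and Hbb-bt measured 469 ± 54.5 and 410 ± 19.6, and 149 ± 42.4 and 100.3 ± 34.1. The part of these markers in the mitochondrial values was not tested.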

How the data were processed

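Total RNA of gastrocnemius was isolated on RNeasy columns and libraries followed the NuGen Ovation Universal protocol, both per the labels' protocols. Per the submitters' processing notes the authors used Trimmomatic, SAMtools and HTSeq with mm10. The sources used here give no versions, aligner, annotation, strand setting or scaling step. The deposited values are a signal: gene counts divided by the authors by 1 factor per library, although the files are named for FPKM. Whole reads were recovered within 0.01 of a read in 100% of the values. In Ogg1Tg replicate 3, 1 read is worth 1.006, so near 1 that recovery is less distinctive.

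Entries without a name (1824, 2.38% to 3.53% of reads) were left out. Genes averaging at least 1 across the 6 libraries were fitted with limma 3.58.1 in R 4.3.3 on log2(value + 1), with a variance trend and Benjamini-Hochberg adjustment over 23312 genes, and called at an adjusted p under 0.05. This scale understates folds of low genes. Ratios and sums came from deposited values, and gene models and sequences from GENCODE M21. Nuclear copies were sought with blastn 2.17.0. Alternatives were other scalings, filters and pseudocounts, a replicate block, edgeR 4.0.16 and DESeq2 1.42.0 on recovered reads, and each library left out. The limma fit was tested on simulated counts that held no outlying library, and the edgeR and DESeq2 fits were not tested in this way. P-values measure only the spread between these 6 libraries, which may be technical, and intervals and floors cover counting error only.

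The members, the 13 ratios and the gene lists were chosen with earlier results of these data known. All 13 mRNAs and 2 rRNAs are named, tRNAs by their counts, and of each gene list the members called or otherwise the 2 highest by mean, except items that are not reported here. Gm10222, Gm13340, Nppa and Myl7 were chosen after their values were seen.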

Additional observations from a re-analysis of the deposited data

How the results depend on the processing

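The number of genes called, 127, became 46 without a variance trend and 622 with DESeq2, and ran from 35 to 425 with 1 library left out. In 2 fits chosen after seeing the data, both without Ogg1Tg replicate 3, it was 309 with rescaling to genes outside the mitochondrial genome and 402 with edgeR. With the replicate block 102 genes and 0 mitochondrial transcripts passed. Deviations of same-numbered libraries from their group means had correlations of -0.053 to 0.031. With 3 libraries per group these cannot decide whether the numbers pair samples. Of the mitochondrial transcripts 0 passed in limma, 2 in DESeq2, and 0 to 3 with 1 library left out, the 3 being mt-Tn, mt-Tc and mt-Tp without Ogg1Tg replicate 3. In the 2 fits without it, 2 and 3 passed. The cause of these differences was not tested. The log2 ratio mt-Nd3/mt-Co3, -0.035, became 0.012 without Control replicate 3 and ran from -0.065 to 0.012 over the libraries left out. mt-Tl1, with 4 to 11 reads, moved from -0.11 to 0.052 with rescaling to genes outside the mitochondrial genome, 0.071 with edgeR, 0.054 with DESeq2 and, with 1 library left out, to between -0.52 and 0.29, and to 0.33 and 0.40 in the 2 added fits. With quantile normalization mt-Co1 came to 0 and mt-Rnr2 to 0.031. The other ratios, shares and sums kept their direction under each alternative run, but some came close to no difference. The log2 difference of the rRNA share, -0.20, became -0.0066 without Ogg1Tg replicate 3. That of mRNAs to rRNAs, -0.14, became -0.0096 without Ogg1Tg replicate 2. For mt-Rnr2/mt-Rnr1 it went from 0.10 to 0.012 without Control replicate 1.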
